A study of Rattus norvegicus with 10 samples.

Results

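The genes described here make cholesterol, sense it and move it in and out of liver cells. They were taken as a list of 28 genes in pathway order and followed through the probe sets annotated to each gene alone. Of the 28 genes, 26 had such a probe set, and 14217 genes were followed in this way on the whole array. Hmgcs1, which makes the precursor of mevalonate, and Soat2, which esterifies cholesterol, were not analysed here. For a gene with several probe sets the one with the highest mean over all 10 arrays was used, and 15 of the 26 genes had more than 1.

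RNA came from livers of female Harlan Sprague-Dawley rats, in 10 samples, 5 per group. Rats of the dosed group received indole-3-carbinol, a compound of cruciferous vegetables, at 300 mg per kg by gavage in corn oil. The vehicle group received corn oil alone by the same route (0 mg per kg), and gavage ran 5 days per week for 13 weeks in both groups according to the sample labels. The design text speaks of a study of 2 years, and neither age nor animal numbers are given, so the p-values here speak only of the spread among these samples, which may be technical. A single dose and a single time were sampled.

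Cholesterol is built from acetyl units through mevalonate, farnesyl diphosphate, squalene and lanosterol, and the liver is a main site of this synthesis. Its genes are driven together by SREBP-2, the protein of Srebf2, which Scap carries from the endoplasmic reticulum to the Golgi when sterols are scarce. The Insig proteins hold the Scap and SREBP complex back in the endoplasmic reticulum when sterols are plentiful, and Insig1 is itself an SREBP target.

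Among the 26 measured genes, only Insig1 and Insig2 passed the test, and both rose in the dosed livers. None of the 18 measured enzymes of synthesis passed, although 15 of them had a higher mean in dosed livers. Srebf2, Scap, Mylip, Abca1 and Scarb1 had lower means and did not pass. The test was limma on log2 values, with Benjamini-Hochberg adjustment over 31042 probe sets (array controls left out) and a threshold of 0.05. On the array as a whole 3.32% of genes rose and 3.11% fell by this test. The median difference, dosed minus vehicle, was 0.11 on the log2 scale over the 26 genes and -0.0039 over all genes.

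The hepatocyte markers (7 measured, among them Alb and Ttr) were among the brightest probe sets of vehicle livers, the lowest of them, Apoa1, at the 99.8th percentile. Of these, Apoa1 rose by 0.38 and 6 did not pass. The 3 adipocyte markers had a median at the 27.4th percentile. Of the Kupffer cell and macrophage markers 0 of 5 passed. Yet their summed level was lower in all dosed arrays, with 11.43 to 11.90 against 11.97 to 12.26 (log2 of the sum). Clec4f, the brightest of them at 11.35 in vehicle livers, weighs most in this sum. Clec4f and Csf1r had no overlap between the groups, whereas Cd68, Cd163 and Adgre1 overlapped. Stellate cell markers had 1 of 5 lower (Lrat), with sums of 10.09 to 10.39 against 10.33 to 10.70. Endothelial (4 measured), cholangiocyte (3 measured), adipocyte, and T and B cell markers (3 measured) had 0 called, and their sums overlapped between the groups. In whole liver, fewer cells of a type and less RNA per cell cannot be told apart. RNA quality was read from the array's own GAPDH and beta-actin probe sets, as the log2 signal at the 3′ end of the transcript less that at the 5′ end. For GAPDH this was 0.40, 0.32, 0.42, 0.45 and 0.65 in vehicle arrays 1 to 5, and 0.22, 0.29, 0.24, 0.16 and 0.24 in dosed arrays 1 to 5. All dosed arrays were thus lower, and a two-sided exact permutation test gave p = 0.0079 (0.016 adjusted over both measures), the lowest value this design allows. For beta-actin the group means were 1.59 ± 0.12 and 1.40 ± 0.14 (SD, n = 5; exact permutation test, p = 0.048, adjusted 0.048), and 3 dosed arrays lay below all vehicle arrays. Vehicle 5 stood apart from its group, with a mean correlation of 0.987 to the other vehicle arrays, where the other vehicle arrays had 0.992 to 0.993. It also had the highest GAPDH difference of all arrays, yet the lowest beta-actin difference of the vehicle arrays (1.45, against 1.51 to 1.74 in the others).

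Insig1 was higher in all dosed livers. In vehicle arrays 1 to 5 it stood at 11.73, 11.48, 12.26, 11.65 and 11.51 on the log2 scale. In dosed arrays 1 to 5 it stood at 12.48, 12.63, 13.03, 12.58 and 12.33. The lowest dosed array lay just above vehicle 3, the highest vehicle array, so that the groups did not overlap. The means were 11.73 ± 0.32 (SD, n = 5) and 12.61 ± 0.26 (SD, n = 5), a difference of 0.88 ± 0.15 (SE, limma adjusted p = 0.0051), or 1.85-fold. Leaving out any 1 array gave differences from 0.78 to 1.02, with limma adjusted p up to 0.017.

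Insig2, the second retention protein, was also higher in all dosed livers. Vehicle arrays 1 to 5 read 11.70, 11.72, 11.58, 11.25 and 11.47, and dosed arrays 1 to 5 read 12.13, 12.11, 11.98, 12.28 and 12.09. A gap separated the highest vehicle array from the lowest dosed one. The means of 11.54 ± 0.19 and 12.12 ± 0.11 (SD, n = 5) differed by 0.57 ± 0.09 (SE, limma adjusted p = 0.0033), a 1.49-fold rise. A second probe set of Insig2 differed by 0.22 ± 0.09 (SE, limma adjusted p = 0.23), and there the groups overlapped, with vehicle arrays at 11.17 to 11.57 and dosed arrays at 11.41 to 11.72. Both calls ended when the GAPDH difference entered the model: Insig1 kept nearly its size (0.82 ± 0.26, SE, limma adjusted p = 0.17) and Insig2 lost some of it (0.38 ± 0.14, SE, limma adjusted p = 0.24). With beta-actin as the covariate instead, Insig1 stayed called at 1.07 ± 0.19 (SE, limma adjusted p = 0.012), whereas Insig2 lay at 0.44 ± 0.11 (SE, limma adjusted p = 0.063). Every dosed array had a lower GAPDH difference than every vehicle array, so this measure and the dose cannot be fully told apart here. With it in the model the SE grew, from 0.15 to 0.26 for Insig1 and from 0.09 to 0.14 for Insig2. The part of RNA quality in these rises was not tested further.

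**Figure D1:**
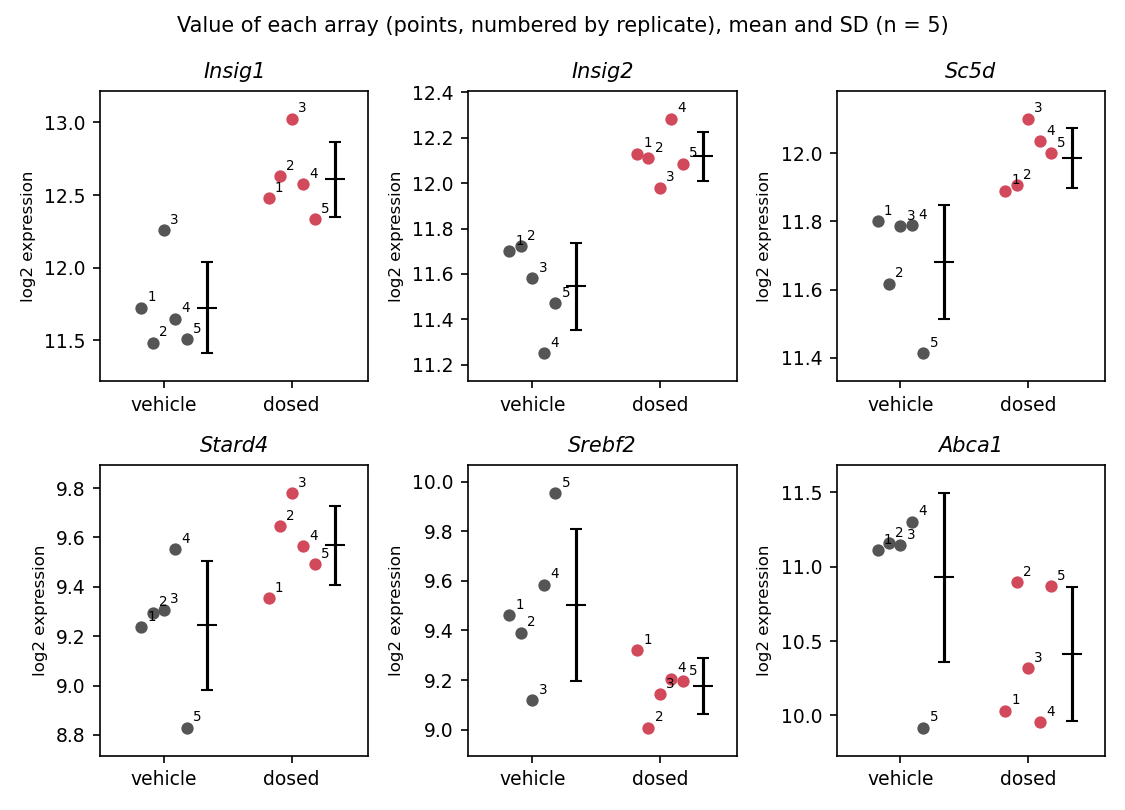
Log2 expression (vertical axis) of 6 genes in each array, grey for vehicle and red for dosed, numbered by replicate, with mean and SD (n = 5) as a bar beside the points. Insig1, Insig2 and Sc5d have no overlap between the groups, while in Abca1 vehicle 5 at 9.92 lies below the other vehicle arrays.

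The windows around the annotated starts of both Insig genes are shown because these are the genes that rose. That of Sc5d is shown because its followed probe set was the only one among the enzymes whose groups did not overlap. The sequences are from RefSeq on build GRCr8 and run from 250 bases before the start to 50 after it, 5′ to 3′ on the gene's own strand, which is the minus strand for all 3. Capitals mark matches on either strand to CACNCCAC, a core of the sterol response element bound by SREBP, to CCAAT, the box bound by NF-Y, and to GCGTG, the core of the element bound by the aryl hydrocarbon receptor.
Insig1, chr4:8057720-8058019: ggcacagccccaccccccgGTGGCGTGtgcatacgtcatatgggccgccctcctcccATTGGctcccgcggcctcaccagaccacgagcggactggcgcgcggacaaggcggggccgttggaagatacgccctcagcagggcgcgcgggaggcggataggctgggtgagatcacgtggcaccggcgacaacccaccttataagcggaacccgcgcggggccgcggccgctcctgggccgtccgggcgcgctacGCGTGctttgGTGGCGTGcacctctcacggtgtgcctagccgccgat
Insig2, chr13:35040049-35040348: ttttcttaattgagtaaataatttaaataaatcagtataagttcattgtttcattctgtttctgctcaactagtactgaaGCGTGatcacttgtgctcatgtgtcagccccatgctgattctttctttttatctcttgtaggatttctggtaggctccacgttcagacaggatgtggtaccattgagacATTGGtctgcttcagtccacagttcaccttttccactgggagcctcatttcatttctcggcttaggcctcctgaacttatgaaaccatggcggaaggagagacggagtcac
Sc5d, chr8:51538228-51538527: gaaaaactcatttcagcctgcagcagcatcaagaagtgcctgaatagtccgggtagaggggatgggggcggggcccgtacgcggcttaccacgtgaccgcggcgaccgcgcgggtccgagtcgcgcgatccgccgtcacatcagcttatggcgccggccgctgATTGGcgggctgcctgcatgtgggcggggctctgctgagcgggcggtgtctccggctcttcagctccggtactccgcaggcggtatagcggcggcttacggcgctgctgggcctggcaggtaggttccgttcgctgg

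The Insig1 window held 2 matches to the sterol core, at bases 20 to 27 and 264 to 271, and each of them overlaps 1 of the 3 GCGTG matches of that window. It also held 1 CCAAT box. The Insig2 window held 1 CCAAT box, 1 GCGTG and 0 sterol cores, and its start site lies 12839 bases downstream of the annotated gene's own upstream end. This window thus lies inside the annotated gene, and its matches do not speak of the sequence at that upstream end. It is still counted in the totals below. The Sc5d window held 1 CCAAT box and 0 of the other motifs. Of the 28 genes 22 had a window in this table. CCAAT was present in 17 of them (77.3%) against 37.5% of all 33469 windows, GCGTG in 13 (59.1%) against 29.7%, and the sterol core in 3 (13.6%: Acat2, Ebp and Insig1) against 5.8%. Each member counted through 1 window, and the 33469 windows were not matched to the members in base content or kind of gene. These are counts of letters, and binding was not measured.

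The transcripts of Srebf2 and Scap, whose proteins Insig holds back, had lower means in dosed livers without passing. Srebf2, the transcription factor gene itself, read 9.46, 9.39, 9.12, 9.59 and 9.96 in vehicle arrays 1 to 5, and 9.32, 9.01, 9.14, 9.21 and 9.19 in dosed arrays 1 to 5. The dosed arrays sat together at the low end of the vehicle range, with dosed 2 below it. The difference was -0.33 ± 0.13 (SE, 95% interval -0.60 to -0.05, limma adjusted p = 0.20), and -0.22 ± 0.09 without vehicle 5, the highest array. Scap read 9.10, 9.08, 9.18, 9.44 and 9.70 in vehicle arrays 1 to 5 and 8.84, 9.17, 9.15, 9.06 and 8.96 in dosed arrays 1 to 5. Here 3 dosed arrays lay below every vehicle array. Its difference was -0.26 ± 0.12 (SE, limma adjusted p = 0.30), and -0.16 ± 0.09 without vehicle 5. A second, dimmer probe set of each gene differed by 0.07 (Srebf2) and 0.03 (Scap). In vehicle livers these stood at 4.60 (Srebf2, 19.9th percentile) and 6.60 (Scap, 55.8th percentile). That of Srebf2 was thus near the low end of the array, where a fall can hardly show. The means of the probe sets, which include these, differed by -0.13 and -0.12. With the GAPDH difference in the model the brighter probe set of each turned positive, Srebf2 to 0.0055 ± 0.18 and Scap to 0.15 ± 0.13 (SE).

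**Figure D2:**
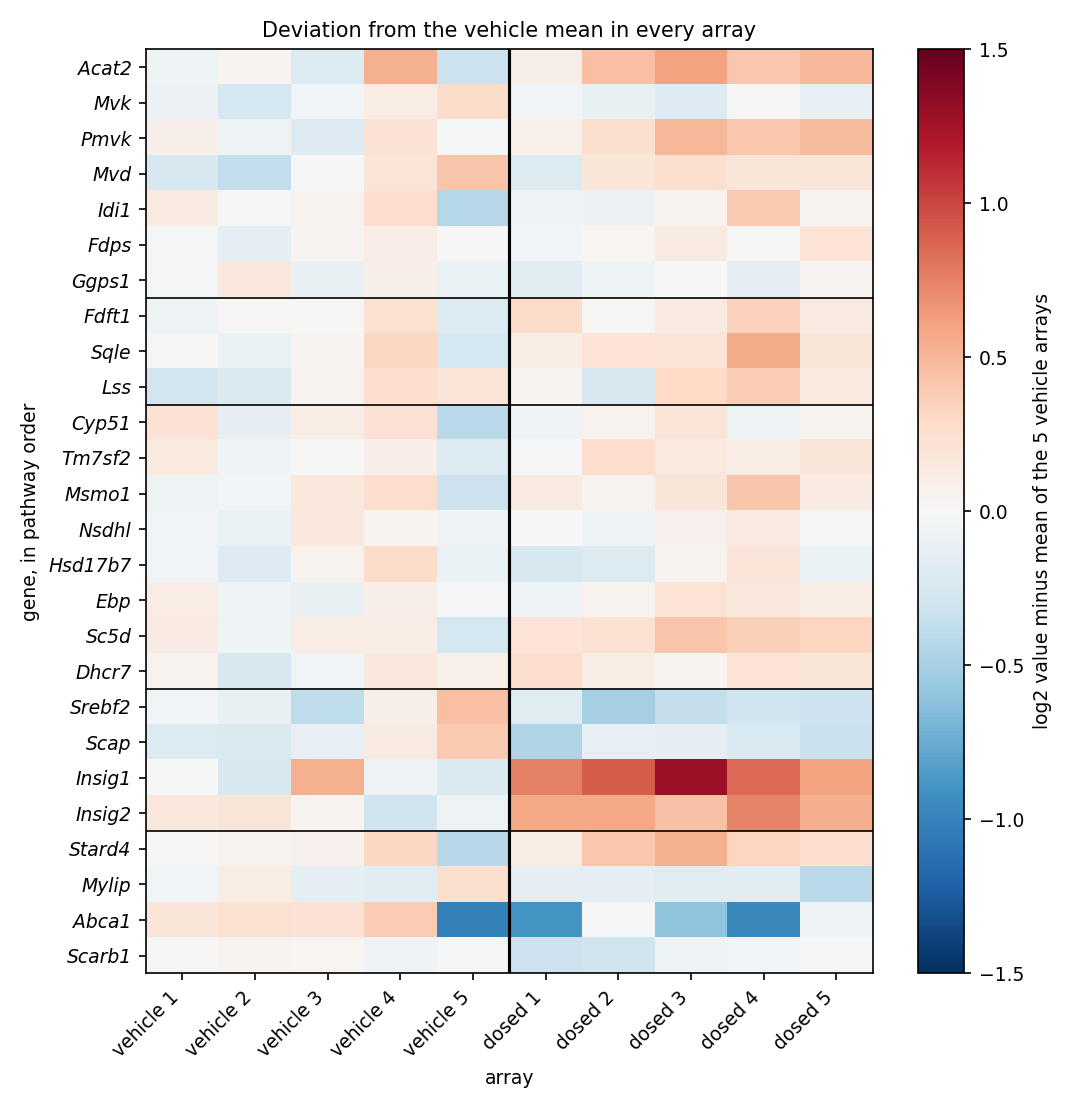
Log2 value of each measured gene (rows, in pathway order, black lines between the roles) in each array (columns) minus the mean of the 5 vehicle arrays, red for higher and blue for lower. Insig1 and Insig2 are red in all 5 dosed arrays, and vehicle 4 is above the vehicle mean for all 18 enzymes.

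Mevalonate and isoprenoid enzymes had 0 of 7 past the test, with differences from -0.09 to 0.41 and a median of 0.07. Acat2, the cytosolic thiolase that joins the first acetyl units, read 9.78, 9.88, 9.64, 10.37 and 9.52 in vehicle and 9.93, 10.28, 10.44, 10.25 and 10.34 in dosed arrays 1 to 5. Apart from vehicle 4, the vehicle arrays were all lower than the dosed ones. The difference was 0.41 ± 0.15 (SE, limma adjusted p = 0.16), and without vehicle 4 it was 0.54 ± 0.11 and passed (limma adjusted p = 0.017). Pmvk, phosphomevalonate kinase, read 10.35, 10.19, 10.07, 10.48 and 10.23 in vehicle and 10.34, 10.51, 10.76, 10.67 and 10.74 in dosed arrays 1 to 5. The dosed arrays other than dosed 1 stood above every vehicle array. Pmvk differed by 0.34 ± 0.10 (SE, limma adjusted p = 0.075), a value that passed without vehicle 4 (0.40, limma adjusted p = 0.048) or without dosed 1 (0.41, limma adjusted p = 0.032).

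The other 5 enzymes of this stretch overlapped widely between the groups. Mvk, mevalonate kinase, was 9.23 ± 0.21 in vehicle and 9.14 ± 0.08 in dosed livers (SD, n = 5). Mvd, which decarboxylates mevalonate diphosphate, was 8.91 ± 0.32 and 9.03 ± 0.18, and Idi1, the isopentenyl diphosphate isomerase, 12.22 ± 0.26 and 12.29 ± 0.19 (SD, n = 5). Fdps, farnesyl diphosphate synthase, had the narrowest interval of difference among these 5, from -0.08 to 0.22 around 0.07. Ggps1, which makes geranylgeranyl diphosphate on a side branch, differed by -0.07 with an interval from -0.23 to 0.09.

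Squalene and lanosterol formation had 0 of 3 past the test, and all 3 had higher means in dosed livers. Sqle, squalene epoxidase and a control point of the later pathway, read 10.53, 10.41, 10.56, 10.82 and 10.25 in vehicle and 10.62, 10.72, 10.71, 11.07 and 10.69 in dosed arrays 1 to 5. The groups overlapped through vehicle 4, and dosed 4 stood apart on the high side. Sqle differed by 0.25 ± 0.11 (SE, limma adjusted p = 0.29), and by 0.04 ± 0.17 with the GAPDH difference in the model. Fdft1, squalene synthase, differed by 0.18 ± 0.09 and Lss, lanosterol synthase, by 0.13 ± 0.13 (SE), with intervals up to 0.37 and 0.41.

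After lanosterol 0 of 8 enzymes passed, with 7 means higher and 1 lower in dosed livers and a median difference of 0.12. Sc5d, the sterol desaturase near the end of the pathway, read 11.80, 11.62, 11.79, 11.79 and 11.41 in vehicle and 11.89, 11.91, 12.10, 12.04 and 11.999 in dosed arrays 1 to 5. Every dosed array was above every vehicle array, by a small margin. It differed by 0.30 ± 0.08 (SE, limma adjusted p = 0.062). It passed with an intensity trend and a robust prior used together for the variance (limma adjusted p = 0.047). After renewed quantile normalisation it passed as well (limma adjusted p = 0.035). The other 2 probe sets of Sc5d differed by 0.07 and 0.06, and in both the groups overlapped. In vehicle livers the followed probe set was the dimmest of the 3, at 11.68 against 11.70 and 11.76. In dosed livers it stood at 11.99 against 11.77 and 11.82, so it was picked as the brightest only through its dosed values. With the GAPDH difference in the model the followed probe set lay at 0.11 ± 0.12 (SE). Dosed arrays lay entirely above vehicle arrays for 3 of the 26 genes (Insig1, Insig2 and Sc5d) and entirely below for 0, where 4.61% of all genes were above and 4.07% below. For Sc5d this holds for the followed probe set alone, whose choice rested on its dosed values.

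Cyp51, the lanosterol demethylase and the cytochrome P450 of this pathway, was 13.12 ± 0.27 in vehicle and 13.15 ± 0.11 in dosed livers (SD, n = 5). Its interval of difference ran from -0.22 to 0.28. Dhcr7, the reductase that ends the pathway, differed by 0.16 ± 0.08, Msmo1, the methylsterol oxidase, by 0.18 ± 0.11 and Tm7sf2, a sterol reductase, by 0.14 ± 0.08 (SE). Ebp, the sterol isomerase, differed by 0.10 ± 0.07 (SE). Nsdhl and Hsd17b7, which act in sequence in removing the methyl groups, differed by 0.03 ± 0.07 and -0.06 ± 0.10 (SE). The largest upper bound of the 8 intervals was that of Sc5d at 0.49.

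**Figure D3:**
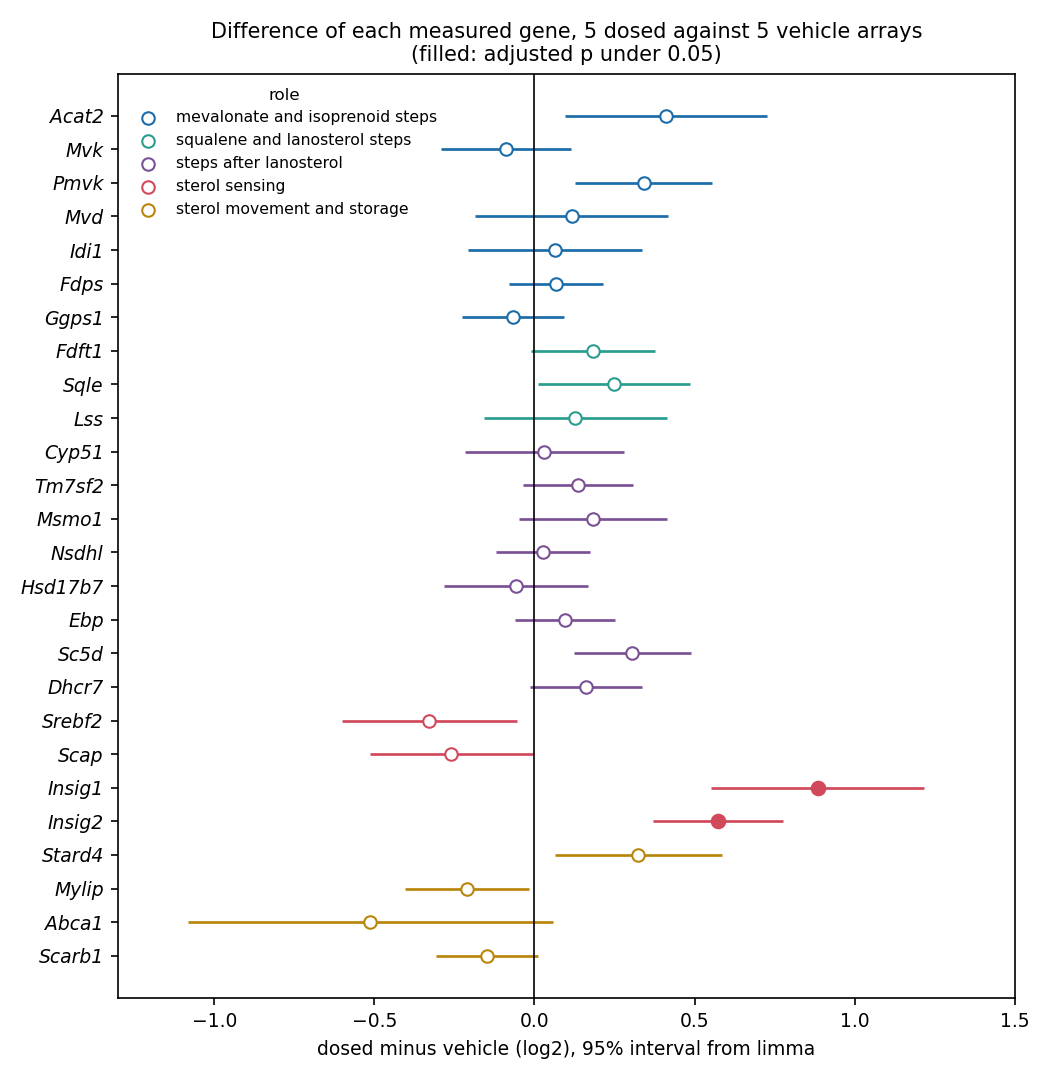
Dosed minus vehicle difference of each measured gene on the log2 scale with its 95% interval from limma (5 arrays per group), coloured by role, filled where the adjusted p was under 0.05. Only Insig1 (0.88) and Insig2 (0.57) are filled, and most enzyme intervals cross 0.

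The enzymes varied between arrays of a group as well as between groups. Taking each enzyme against its vehicle mean, the median over the 18 enzymes was -0.02, -0.09, 0.03, 0.20 and -0.10 in vehicle arrays 1 to 5. In dosed arrays 1 to 5 it was -0.01, 0.05, 0.16, 0.20 and 0.15. All 5 dosed medians thus lay within the vehicle range, whose upper end was vehicle 4. Vehicle 4 held the highest vehicle value for 10 of the 18 enzymes, vehicle 5 the lowest for 8, and dosed 1 the lowest dosed value for 10. Over the 26 genes the SD was larger in vehicle than in dosed arrays for 20, where this held for 9405 of all 14217 genes. At an unadjusted p under 0.05, 7 of the 26 genes were higher and 3 lower, against 9.62% and 10.2% of all genes.

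Genes of sterol movement had 0 of 4 past the test. Stard4, a cytosolic sterol carrier, read 9.24, 9.30, 9.31, 9.55 and 8.83 in vehicle and 9.36, 9.65, 9.78, 9.56 and 9.49 in dosed arrays 1 to 5. The groups overlapped through vehicle 4, and vehicle 5 was lowest. The difference was 0.32 ± 0.12 (SE, limma adjusted p = 0.18). A dimmer probe set of Stard4 was higher in every dosed array, at 7.54 to 7.81 in vehicle and 7.86 to 8.27 in dosed arrays, and rose by 0.45 ± 0.08 (SE, limma adjusted p = 0.0079). The remaining probe set differed by 0.06 ± 0.08 (SE, limma adjusted p = 0.83). The mean of the 3 Stard4 probe sets passed, at 0.28 ± 0.08 (SE, limma adjusted p = 0.043). With the GAPDH difference in the model the brightest one lay at 0.06 ± 0.18 and the dimmer one at 0.35 ± 0.14 (SE, limma adjusted p = 0.27). With beta-actin as the covariate the dimmer one did not pass either (0.41 ± 0.11, SE, limma adjusted p = 0.088).

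Abca1, the exporter that loads cholesterol onto apolipoprotein A-I, read 11.11, 11.16, 11.14, 11.30 and 9.92 in vehicle and 10.03, 10.90, 10.32, 9.96 and 10.87 in dosed arrays 1 to 5. The vehicle arrays apart from vehicle 5 sat close together above all dosed arrays, and vehicle 5 lay below all of them. The difference was -0.51 ± 0.26 (SE, limma adjusted p = 0.38) with all arrays and -0.77 ± 0.18 (SE, limma adjusted p = 0.028) without vehicle 5. A second probe set read 8.34 in vehicle 5 against 9.70 to 10.03 in the other vehicle arrays, and passed as well without vehicle 5 (-0.80 ± 0.20, SE, limma adjusted p = 0.031). Another probe set, at 9.60 in vehicle 5, showed no such gap and differed by -0.21 ± 0.08 (SE, limma adjusted p = 0.18). The dimmest showed none either, at 6.92 in vehicle 5 and 6.71 to 7.30 over the vehicle arrays. It differed by -0.12 ± 0.11 (SE, limma adjusted p = 0.73). Neither of these last probe sets passed without vehicle 5 (limma adjusted p = 0.15 and 0.56). Abca1 is also expressed in macrophages, whose summed markers were lower in dosed arrays, and the part of that in these values was not tested. With beta-actin as the covariate Abca1 lay at -0.01 ± 0.27, and with the GAPDH difference at -1.09 ± 0.40 (SE), without a call in either.

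Mylip, a ubiquitin ligase that removes lipoprotein receptors, read 6.44, 6.60, 6.33, 6.32 and 6.73 in vehicle and 6.33, 6.33, 6.30, 6.31 and 6.07 in dosed arrays 1 to 5. The dosed arrays lay at or below the level of vehicle 3 and 4, the lowest vehicle arrays. It differed by -0.21 ± 0.09 (SE, limma adjusted p = 0.26). Scarb1, the receptor that takes up cholesterol from high-density lipoprotein, read 9.23, 9.27, 9.26, 9.18 and 9.24 in vehicle and 8.93, 8.94, 9.17, 9.19 and 9.22 in dosed arrays 1 to 5. The vehicle arrays agreed closely and dosed 1 and 2 were low, for a difference of -0.15 ± 0.07 (SE, limma adjusted p = 0.36).

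**Figure D4:**
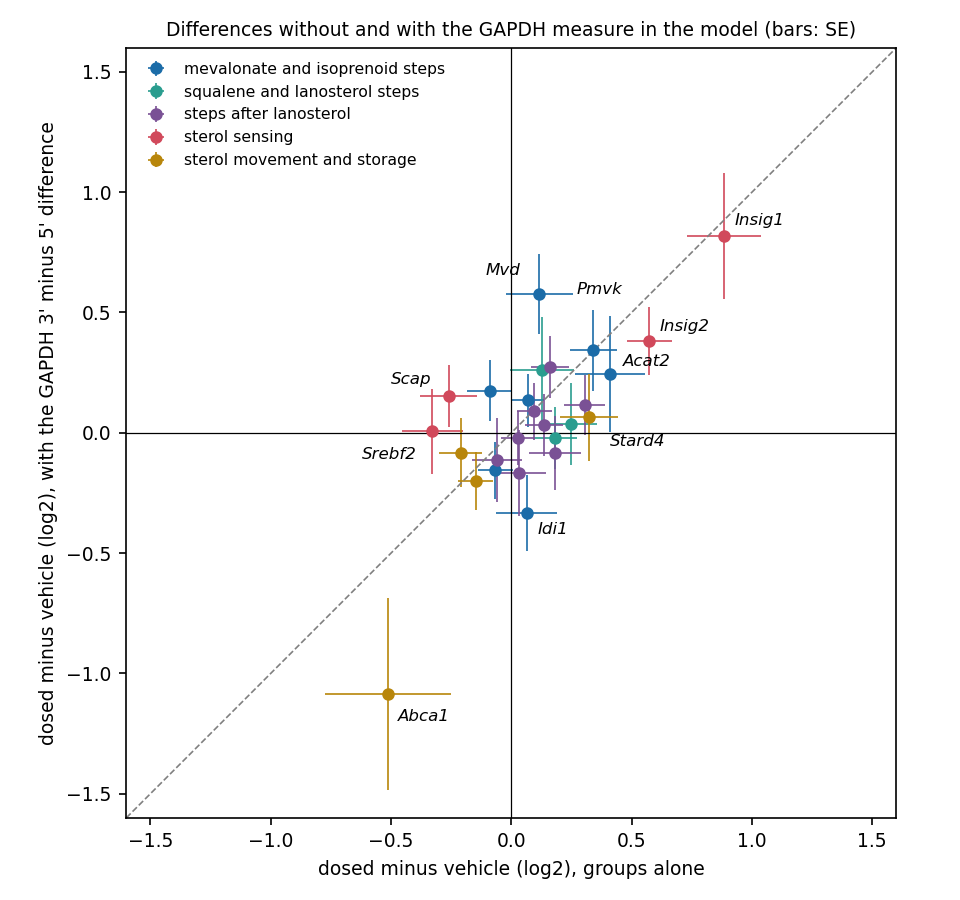
Dosed minus vehicle difference of each measured gene (log2) from the groups alone (horizontal axis) and with the GAPDH 3′ minus 5′ difference in the model (vertical axis), with SE bars and the line of equality dashed. Insig1 lies near the line, Srebf2 and Scap move from below 0 to above it, and Abca1 moves to -1.09.

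Of 53 further genes of sterol and isoprenoid handling 45 were measured, and 3 rose and 1 fell, where 3.32% of all genes rose and 3.11% fell. Counts this small were not read as a result about these genes as a set. Por, the reductase that passes electrons to Cyp51, to other cytochromes P450 and to squalene epoxidase, read 9.32 to 9.90 (median 9.50) in vehicle and 10.68 to 11.17 (median 10.99) in dosed arrays. It rose by 1.32 ± 0.12 (SE, limma adjusted p = 7.71e-05), more than any of the 26 genes. Tmem97, a membrane protein of cholesterol handling known as an SREBP target in human cells, read 10.15 to 10.56 in vehicle and 10.99 to 11.26 in dosed arrays and rose by 0.69 ± 0.09 (SE, limma adjusted p = 0.00053). Dhdds, which extends isoprenoids toward dolichol, rose by 0.48 ± 0.08 (SE, limma adjusted p = 0.0037). Lipc, the hepatic lipase that acts on lipoproteins, read 12.52 to 12.74 in vehicle and 11.72 to 12.07 in dosed arrays and fell by 0.76 ± 0.08 on the log2 scale (limma adjusted p = 0.00019). All 4 had no overlap between the groups. Of the 45, dosed arrays lay entirely above vehicle arrays for 5 and entirely below for 2, against 4.61% and 4.07% of all genes. The median difference of the 45 was -0.04.

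Por (1.33 ± 0.21, SE, limma adjusted p = 0.013) and Lipc (-0.69 ± 0.13, SE, limma adjusted p = 0.034) stayed called with the GAPDH difference in the model, and Tmem97 (0.46 ± 0.12, limma adjusted p = 0.097) and Dhdds (0.44 ± 0.13, limma adjusted p = 0.16) did not. Without vehicle 5, 7 of the 45 were called, where calls over all 14217 genes went from 914 to 1243. The 3 added were Stard5, a sterol carrier, at -0.43 ± 0.10, Abcg8, part of the sterol exporter into bile, at -0.66 ± 0.17, and Lpcat3, which remodels phospholipids, at 0.30 ± 0.08 (SE, limma adjusted p = 0.020, 0.041 and 0.039). These 3 were singled out after their values were seen.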

How the data were processed

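Liver RNA in 10 samples, 5 per group, was measured on rat 3′ expression arrays (RG230_2.0). The deposited table holds log2 expression values that the authors made with RMA, per the submitters' processing notes. Which version they ran is not given in the sources used here. This step brings the arrays to 1 distribution, so a shift shared by most genes is removed, and it compresses large folds. Values ran from 3.00 to 15.1. Correlations between arrays ran from 0.983 to 0.997, and no array copied another. For arrays their number limits the precision.

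Of 31099 probe sets 57 were controls. Symbols came from the platform annotation of the array and were updated through Entrez IDs with RefSeq's gene table (GRCr8). Of the rest 20826 named 1 gene, and 436 that named several were used for none. The tests were two-sided, with lmFit and eBayes of limma 3.58.1 under R 4.3.3 (prior degrees of freedom 4.60), adjusted over 31042 probe sets. "Rose", "fell" and "passed" refer to an adjusted p under 0.05, and a difference is dosed minus vehicle on the log2 scale. The fit was tested on simulated data. Replicate numbers were not taken as pairs in the main fit.

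Genes, lists and alternatives were chosen with earlier results of these data known. Named were all members, further sterol and isoprenoid genes past the threshold (up to 6), and markers that passed. Outside this rule, Alb, Ttr and the 5 measured Kupffer cell and macrophage markers were named, and none of these passed. Stard5, Abcg8 and Lpcat3 were named for their calls without vehicle 5. The gene differences and counts of calls were computed again without each array in turn, with the GAPDH or beta-actin difference as a covariate, with replicate numbers as a block, with an intensity trend and robust prior, without dim probe sets, after median centring or a further quantile normalisation, with probe sets averaged per gene, and at a threshold of 0.01. The members' median was computed again for the scalings and without each array.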

Additional observations from a re-analysis of the deposited data

Results flagged for a closer look

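Among 52 groups of 5 arrays (26 genes, each in vehicle and dosed livers), 5 held an array set apart from the other 4 by most of the group's range. By chance about 1 in 20 groups is marked in this way. Abca1 in vehicle 5 was 9.92, with the next vehicle array at 11.11. Without that array the difference of Abca1 was -0.77 and passed. Mvd in dosed 1 was 8.71, with the next at 9.09, and its difference went from 0.12 to 0.20 without it. In dosed 4, Idi1 was 12.62 (next 12.27) and Sqle was 11.07 (next 10.72). Without dosed 4 their differences were -0.018 and 0.17. Mylip in dosed 5 was 6.07, with the next at 6.30, and its difference without it was -0.16. None of these 4 genes passed with or without the array.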

How the results depend on the processing

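With the groups alone 914 genes, 2 members and 4 further genes were called. The rises of Insig1 and Insig2 were called with each array left out, with the replicate block and with probe sets averaged per gene. They were also called under every change of variance model, filter, scaling and threshold. The second probe set of Insig2 was not called on its own (limma adjusted p = 0.23). With the GAPDH difference in the model 228 genes, 0 of the 26 members (by limma's unadjusted p under 0.05, 3 were higher and 1 lower) and 2 of the further genes were called. With the beta-actin difference these were 497 genes, 1 member and 4 further genes, and at a threshold of 0.01 there were 437 genes. With 1 array left out, 651 to 1243 genes, 2 to 4 members (2 to 4 higher, 0 to 1 lower) and 4 to 7 further genes were called. The median difference of the members ran from 0.067 to 0.14 there. The 4 members without vehicle 4 were Insig1, Insig2, Acat2 and Pmvk. With the replicate block 647 genes, 2 members and 6 further genes were called. Arrays of the same number had deviations correlated at -0.28 to 0.22, and 2 of 5 vehicle arrays correlated best with the dosed array of their number, so the numbers were not taken as pairs.

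Some uncalled differences changed sign, and the cause was not tested. With the GAPDH difference these were Mvk (0.18), Idi1 (-0.33), Fdft1 (-0.023), Cyp51 (-0.17), Msmo1 (-0.083), Nsdhl (-0.021), Srebf2 (0.0055) and Scap (0.15). With the mean of probe sets they were Idi1 (-0.043), Ggps1 (0.0046), Nsdhl (-0.054) and Hsd17b7 (0.038). Leaving out arrays gave -0.044 to 0.13 for Idi1, -0.069 to 0.085 for Cyp51 and -0.12 to 0.011 for Hsd17b7.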
